A study of Mus musculus with 53 samples.

Results

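The genes described here are 33 markers of the cells that build brain blood vessels: 22 of endothelial cells, 8 of pericytes and 3 of vascular smooth muscle cells. They were taken as a list by symbol, and all 33 were matched among the 54393 gene identifiers counted in both brain regions. Within a region, none of these genes passed the test over all genes for diet, for ethanol history or for the interaction of diet and history, although PLX5622 lowered microglial transcripts in the same libraries. The largest differences between dependent and non-dependent mice averaged over diet, none of them called, were for the smooth muscle genes Acta2, Tagln and Myl9, whose estimates were lower in dependent mice in the central nucleus of the amygdala. Of these, Acta2 and Tagln passed the filter on low counts in that region through non-dependent mice, where they were high. Between the regions 19 of the 29 genes tested were called, 65.5%, close to the 68.5% of all genes.

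The RNA came from homogenates of the central nucleus of the amygdala (CeA) and the medial prefrontal cortex (mPFC) of C57BL6/J mice at postnatal day 119, and was sequenced near its 3' ends. Mice ate Control Diet or chow with PLX5622 at 1200 ppm, an inhibitor of CSF1R, the receptor microglia need to survive. The treatment text gives 1200 mg/kg for 28 days, followed by 4 weeks of chronic intermittent ethanol combined with a bottle choice that offered 15% ethanol, and tissue was collected 24 h after the final ethanol. The labels call mice dependent (Dep) or non-dependent (Non-Dep) without saying which exposure Non-Dep mice had. The CeA groups held 4 PLX5622 Dep, 4 PLX5622 Non-Dep, 5 control Dep and 6 control Non-Dep libraries. The mPFC groups held 9 PLX5622 Dep, 9 PLX5622 Non-Dep, 9 control Dep and 7 control Non-Dep libraries. Vessels were not isolated, so fewer cells of a type and less RNA per cell cannot be told apart.

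Brain capillaries are tubes of endothelial cells sealed by tight junctions, and their transporters carry glucose, amino acids and lipids across this blood-brain barrier. Pericytes sit on the capillary wall within the basement membrane and are recruited by platelet-derived growth factor through its receptor Pdgfrb. Arterioles are instead wrapped in smooth muscle cells, whose contractile proteins include alpha smooth muscle actin (Acta2), transgelin (Tagln) and a myosin light chain (Myl9).

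Libraries held 1062443 to 1968971 gene counts in CeA and 1531574 to 2607438 in mPFC. Csf1r, the receptor that PLX5622 inhibits and a microglial marker, was at 0 to 4.76 CPM in all PLX5622 libraries of both regions and at 31.7 to 59.9 CPM in all control libraries, so the diets did not overlap. CPM are counts per 1000000 of the library size after TMM scaling. Synthetic spike-in RNA gave over 1000 counts in 12 libraries, all from Dep mice (11745 to 22511 in CeA and 21989 to 32416 in mPFC), and at most 316 counts in any other; the 12 are called spike-in libraries. The CeA libraries also held transcripts of choroid plexus: Ttr, the thyroid hormone carrier abundant there, was at 26.9 to 4186 CPM in CeA and at 0 to 0.970 CPM in mPFC.

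The defining markers of each class were present in both regions, with exceptions at the low end. The vascular endothelial growth factor (VEGF) receptor gene Flt1 averaged 104.8 ± 13.7 CPM in CeA (SD, n = 19) and 122.8 ± 14.1 CPM in mPFC (SD, n = 34). The pericyte gene Rgs5, a regulator of G protein signalling, averaged 56.8 ± 4.81 CPM in CeA and 66.2 ± 9.24 CPM in mPFC. The actin gene Acta2 averaged 7.31 ± 5.45 CPM in CeA and 4.20 ± 2.17 CPM in mPFC. The secreted factor gene Egfl7 was close to absent, with 4 counts in all CeA libraries together and 10 in all mPFC libraries. The filter on low counts left 26 members in CeA, 27 in mPFC and 29 in the fit of both regions. Below it in both regions were Egfl7, the receptor gene Tie1, the peptidase gene Anpep, the potassium channel gene Kcnj8 and Higd1b. Below it in CeA alone were the cadherin gene Cdh5 and Abcc9, the partner subunit of Kcnj8, and in mPFC alone Tagln. The values are not scaled by transcript length, so levels are compared between groups and not between genes.

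The group means of log2(CPM + 1) over each class lay close together for endothelial cells and pericytes. The endothelial mean in CeA was 3.91 ± 0.16 in PLX5622 Dep (n = 4), 3.89 ± 0.09 in PLX5622 Non-Dep (n = 4), 3.97 ± 0.19 in control Dep (n = 5) and 4.03 ± 0.04 in control Non-Dep mice (n = 6, all SD). In mPFC it was 4.14 ± 0.09 in PLX5622 Dep (n = 9), 4.20 ± 0.11 in PLX5622 Non-Dep (n = 9), 4.19 ± 0.09 in control Dep (n = 9) and 4.13 ± 0.03 in control Non-Dep mice (n = 7). The endothelial means of PLX5622 Non-Dep and control Non-Dep libraries of CeA did not overlap, at 3.75 to 3.95 and 3.97 to 4.09. This difference was not tested, and how many of all genes separate these groups was not counted. Between these groups 0 members had an unadjusted p under 0.05, against 9.07% of all genes. The other endothelial groups within a region overlapped. The interaction of diet and history, a difference of differences of these means, was 0.07 in CeA and -0.12 in mPFC, against a spread within groups of 0.14 and 0.08. For pericytes the interaction was 0.09 in CeA and -0.21 in mPFC, with within-group spreads of 0.15 and 0.14. The smooth muscle mean had the widest spread, 0.64 in CeA and 0.39 in mPFC. In CeA it was 2.74 ± 0.44 in PLX5622 Dep, 3.71 ± 0.84 in PLX5622 Non-Dep, 2.78 ± 0.16 in control Dep and 3.36 ± 0.84 in control Non-Dep mice.

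**Figure D1:**
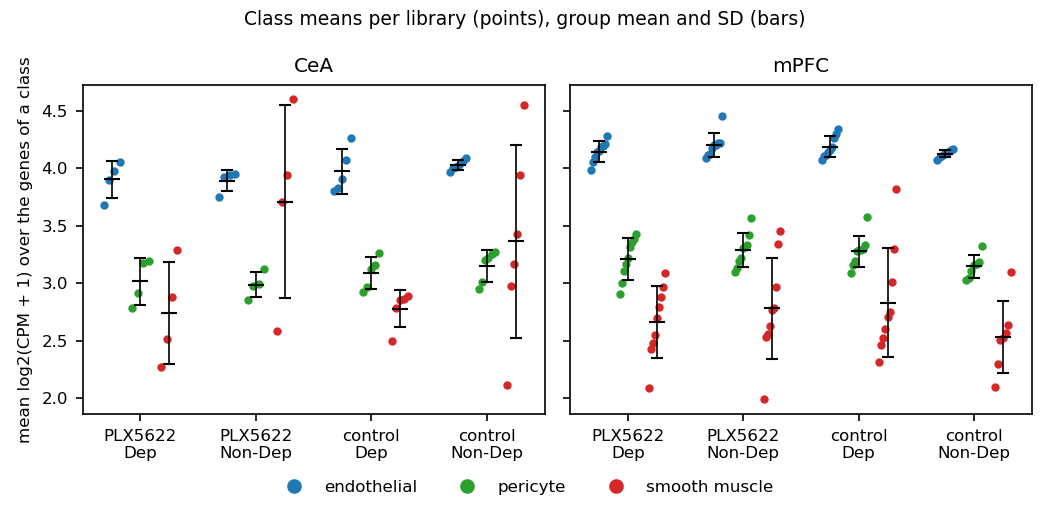
Mean log2(CPM + 1) over the 22 endothelial, 8 pericyte and 3 smooth muscle genes in each library (points), with group mean and SD (bars), by region and group. Endothelial means of CeA reach 3.95 in PLX5622 Non-Dep libraries and start at 3.97 in control Non-Dep libraries, a gap that was not tested. The other endothelial and all pericyte groups of a region overlap. Smooth muscle means reach 4.60 and 4.55 in single Non-Dep libraries of CeA.

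No member passed in any comparison within a region (edgeR quasi-likelihood test, adjusted p under 0.05 over all genes), and DESeq2 also called 0. For PLX5622 against control in CeA, 0.410% of all genes passed in Dep mice, 0.913% in Non-Dep mice and 0.853% averaged over history. In mPFC these shares of all genes were 0.916%, 0.633% and 1.16%. For Dep against Non-Dep in CeA, 0% passed on PLX5622, 0% on control diet and 0.0256% averaged over diet. In mPFC, 0% passed on PLX5622, 0.00811% on control diet and 0.219% averaged over diet. For the interaction, 0% passed in either region.

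The diet comparison asked whether the vascular transcripts differed once microglia were depleted. In CeA the median member difference, PLX5622 minus control, was -0.04 on the log2 scale in Dep mice (10 members above 0 and 16 below), -0.07 in Non-Dep mice (7 above, 19 below) and -0.11 averaged over history. In mPFC it was -0.08 in Dep mice (8 above, 19 below), 0.10 in Non-Dep mice (22 above, 5 below) and 0.03 averaged over history. The median over all genes lay between -0.0057 and 0.0054 in these comparisons. At an unadjusted p under 0.05 there were 2 members in CeA of Dep mice, 0 in Non-Dep mice and 1 averaged over history, against 5.49%, 9.07% and 9.38% of all genes. Beside the CeA values averaged over history, all 10 striatal neuron markers tested of 11 lay below 0 (median -0.66) and so did all 13 oligodendrocyte markers tested of 14 (median -0.39), with 0 called, and their part was not tested. In mPFC there were 3 in Dep mice, 2 in Non-Dep mice and 0 averaged over history, against 6.46%, 5.45% and 7.88% of all genes.

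Among the transporters, the glucose transporter gene Slc2a1 had the smallest p for diet in CeA of Dep mice. It was at 67.1, 75.2, 83.8 and 103.9 CPM in PLX5622 Dep libraries, against 86.7, 89.3, 100.6, 114.2 and 122.2 CPM in control Dep libraries. The groups overlapped in the one PLX5622 library at 103.9 CPM, and the difference was -0.32 ± 0.13 (SE; edgeR adjusted p = 0.78). Without the libraries with spike-in RNA, which leaves 1 PLX5622 Dep library whose spread is taken from the other groups, the difference was -0.03. In Non-Dep mice of CeA, Slc2a1 was at 87.3, 93.98, 95.7 and 106.4 CPM with PLX5622, against a lowest of 69.8, a median of 99.5 and a highest of 114.9 CPM on control diet. In mPFC its lowest, median and highest were 83.8, 107.9 and 153.2 CPM in PLX5622 Dep libraries and 94.7, 104.1 and 120.1 CPM in PLX5622 Non-Dep libraries. Averaged over history in CeA the difference was -0.16 ± 0.09 (edgeR adjusted p = 0.59).

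The monocarboxylate transporter gene Slc16a1 had the smallest p in CeA of Non-Dep mice, at 0.41 ± 0.20 (edgeR adjusted p = 0.56), and in CeA averaged over history, at 0.32 ± 0.15 (adjusted p = 0.48). Its chaperone basigin, encoded by Bsg, was at 300.3, 306.7, 307.0 and 327.1 CPM in PLX5622 Dep libraries of CeA and at 289.2, 307.3, 313.9 and 380.8 CPM in PLX5622 Non-Dep libraries. On control diet Bsg in CeA was at 255.3, 276.7, 293.6, 311.5 and 327.6 CPM in Dep libraries and at 243.9, 306.1 and 378.8 CPM (lowest, median and highest) in Non-Dep libraries. The groups overlapped in CeA. In mPFC the lowest, median and highest Bsg values were 166.9, 183.8 and 218.2 CPM in PLX5622 Dep, 168.2, 183.5 and 206.0 in PLX5622 Non-Dep, 177.4, 188.9 and 197.4 in control Dep and 182.8, 199.9 and 211.4 in control Non-Dep libraries. The diet difference there was -0.10 ± 0.05 in Non-Dep mice (adjusted p = 0.90) and -0.05 ± 0.03 averaged over history (adjusted p = 0.76). The efflux pump gene Abcb1a was at 0.12 ± 0.08 in mPFC averaged over history (adjusted p = 0.76).

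Ly6a, a surface protein gene of mouse endothelium, was at 18.4, 18.5, 24.4 and 25.7 CPM in PLX5622 Dep libraries of CeA, against 20.2, 20.7, 26.8, 37.6 and 51.4 CPM in control Dep libraries. The ranges overlapped, and a pair of control libraries lay above all others. The difference was -0.57 ± 0.25 (edgeR adjusted p = 0.84) in Dep mice, -0.98 without the spike-in libraries, and -0.32 ± 0.17 averaged over history (adjusted p = 0.59). In Non-Dep mice of CeA, Ly6a was at 16.0, 19.9, 26.7 and 28.8 CPM with PLX5622, against a lowest of 17.4, a median of 22.8 and a highest of 29.9 CPM on control diet. In mPFC its lowest, median and highest were 23.8, 26.0 and 43.6 CPM in PLX5622 Dep and 23.1, 27.4 and 40.5 CPM in PLX5622 Non-Dep libraries.

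Its relative Ly6c1 was at 6.84, 7.70, 14.1 and 15.5 CPM in PLX5622 Dep libraries of CeA, against 6.33, 11.0, 11.1, 12.2 and 13.6 CPM in control Dep libraries. In Non-Dep mice it was at 4.00, 5.78, 9.62 and 10.5 CPM with PLX5622, against a lowest of 7.77, a median of 10.3 and a highest of 14.5 CPM on control diet. A pair of PLX5622 Non-Dep libraries lay below all others of CeA, while the groups overlapped, and the difference in Non-Dep mice was -0.50 ± 0.28 (edgeR adjusted p = 0.64). In mPFC the lowest, median and highest Ly6c1 values were 6.81, 13.85 and 20.1 CPM in PLX5622 Dep, 8.85, 14.7 and 20.6 in PLX5622 Non-Dep, 12.6, 16.0 and 23.1 in control Dep and 7.29, 14.1 and 19.3 in control Non-Dep libraries. Vwf, the von Willebrand factor gene of clotting, was at 0.47 ± 0.22 in mPFC of Dep mice (adjusted p = 0.72) and at 0.31 ± 0.16 averaged over history (adjusted p = 0.66).

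The junction and adhesion genes gave no call for diet, and over the 4 tested in CeA the differences in Dep mice ran from -0.33 to -0.03. Cldn5, the tight junction claudin of brain endothelium, was at 5.13, 7.81, 9.89 and 11.7 CPM in PLX5622 Dep libraries of CeA, against 6.30, 8.63, 10.0, 10.4 and 10.8 CPM in control Dep libraries. In Non-Dep mice Cldn5 was at 7.33, 8.33, 11.1 and 13.0 CPM with PLX5622, against a lowest of 8.45, a median of 11.95 and a highest of 15.7 CPM on control diet. The CeA groups overlapped. In mPFC the lowest, median and highest Cldn5 values were 6.58, 11.4 and 13.6 CPM in PLX5622 Dep, 10.1, 11.97 and 19.1 in PLX5622 Non-Dep, 7.24, 12.2 and 17.2 in control Dep and 6.53, 11.0 and 15.7 in control Non-Dep libraries.

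Pecam1, an adhesion protein of endothelial contacts, was at 9.41, 9.77, 9.89 and 12.9 CPM in PLX5622 Dep libraries of CeA, against 8.57, 11.8, 12.7, 13.9 and 14.6 CPM in control Dep libraries. In Non-Dep mice Pecam1 was at 6.41, 9.17, 9.40 and 13.3 CPM with PLX5622, against a lowest of 6.74, a median of 10.5 and a highest of 11.8 CPM on control diet. These groups overlapped as well. In mPFC the lowest, median and highest Pecam1 values were 6.25, 9.78 and 14.2 CPM in PLX5622 Dep, 7.65, 9.89 and 12.7 in PLX5622 Non-Dep, 7.16, 10.1 and 14.8 in control Dep and 8.15, 9.51 and 12.4 in control Non-Dep libraries.

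The growth factor receptors bind VEGF (Flt1, Kdr), angiopoietins (Tek) or, as a partner receptor, TGF-beta ligands (Eng), and in CeA of Dep mice their diet differences ran from -0.29 to 0.36, the highest being Eng at 0.36 ± 0.27 (edgeR adjusted p = 0.96) and at -0.20 without the spike-in libraries. Flt1 was at 89.0, 101.6, 108.8 and 118.7 CPM in PLX5622 Dep libraries of CeA, against 83.6, 84.3, 110.1, 125.6 and 126.4 CPM in control Dep libraries. In Non-Dep mice Flt1 was at 87.2, 91.1, 99.98 and 106.3 CPM with PLX5622, against a lowest of 98.6, a median of 112.5 and a highest of 119.6 CPM on control diet. The Non-Dep groups overlapped only at their edges, and the difference was -0.19 ± 0.11 (adjusted p = 0.63). In mPFC the lowest, median and highest Flt1 values were 98.7, 120.2 and 139.2 CPM in PLX5622 Dep, 111.4, 120.1 and 166.1 in PLX5622 Non-Dep, 108.96, 124.5 and 140.5 in control Dep and 99.1, 109.8 and 143.2 in control Non-Dep libraries. The diet difference there was 0.15 ± 0.08 in Non-Dep mice (adjusted p = 0.93), and the difference of the diet effect between regions, averaged over history, was -0.16 ± 0.10 (adjusted p = 0.71).

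**Figure D2:**
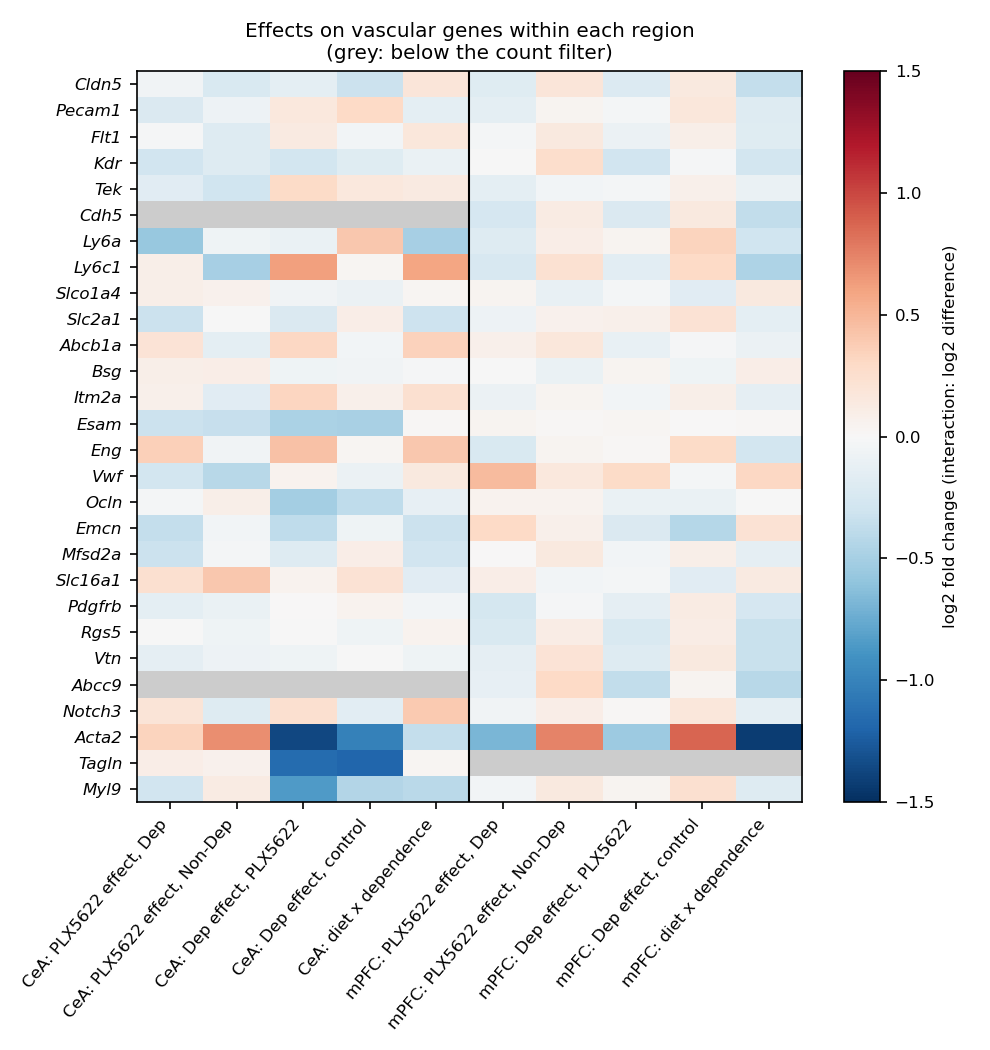
Log2 fold changes of the tested members (rows) for PLX5622 over control diet, Dep over Non-Dep, and the diet by dependence interaction (columns), CeA left and mPFC right; grey marks members below the count filter. The deepest cells of Acta2 are -1.37 for history on PLX5622 diet in CeA and -1.43 for the interaction in mPFC.

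Ethanol history was compared within each diet. Averaged over diet, the median member difference, Dep minus Non-Dep, was -0.04 in CeA (11 above 0 and 15 below) and 0.00 in mPFC (14 above, 13 below). At an unadjusted p under 0.05 there were 2 members on PLX5622 and 1 on control diet in CeA, against 6.07% and 6.19% of all genes. Averaged over diet there were 5 of 26, against 7.30% of all genes. They were the 3 smooth muscle genes, the tight junction gene Ocln at -0.44 ± 0.18 (edgeR adjusted p = 0.56) and the adhesion gene Esam at -0.48 ± 0.20 (adjusted p = 0.59). Acta2 and Tagln passed the filter in CeA through Non-Dep libraries where they were high. Counts that hold them are so no support for a difference by history. The 4 pericyte genes tested in CeA lay between -0.04 and 0.04, and the 6 transporter genes between -0.07 and 0.14.

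All 3 smooth muscle genes had lower estimates in Dep than in Non-Dep mice of CeA, with wide spread. Acta2 was at 1.71, 3.08, 5.86 and 9.19 CPM in PLX5622 Dep libraries, against 4.67, 12.4, 13.5 and 21.7 CPM in PLX5622 Non-Dep libraries. On control diet it was at 2.36, 3.16, 3.47, 4.29 and 5.58 CPM in Dep libraries, against a lowest of 2.16, a median of 8.05 and a highest of 16.3 CPM in Non-Dep libraries. Most Dep libraries were low, and on either diet the ranges overlapped because 1 or more Non-Dep libraries were as low. These values rest on few reads, 26 and 30 counts in all PLX5622 Dep and control Dep libraries of CeA, against 77 and 68 counts in the matching Non-Dep groups. Averaged over diet the difference was -1.19 ± 0.35 (edgeR adjusted p = 0.33). Without the spike-in libraries it was -0.76.

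Tagln was at 0.615, 4.28, 4.88 and 5.65 CPM in PLX5622 Dep libraries of CeA, against 2.67, 5.90, 8.98 and 15.9 CPM in PLX5622 Non-Dep libraries. In control Dep libraries Tagln was at 2.14, 2.36, 3.05, 3.80 and 5.55 CPM, against a lowest of 1.44, a median of 4.81 and a highest of 19.4 CPM in control Non-Dep libraries. The difference averaged over diet was -1.17 ± 0.47 (edgeR adjusted p = 0.59). The filter asks for about 10 counts, at the median depth, in as many libraries as the smallest group holds. No Dep library of CeA reached that level for Tagln, and for Acta2 only the one at 9.19 CPM did. Both genes were so tested in CeA because of Non-Dep libraries where they were high, and their direction there is no separate support. Myl9, the light chain of smooth muscle myosin, was at 8.79, 11.98, 12.7 and 16.0 CPM in PLX5622 Dep libraries of CeA, against 9.33, 22.9, 24.4 and 36.1 CPM in PLX5622 Non-Dep libraries. In control Dep libraries Myl9 was at 11.8, 14.2, 15.0, 18.4 and 18.6 CPM, against a lowest of 9.38, a median of 20.7 and a highest of 35.7 CPM in control Non-Dep libraries. The difference was -0.65 ± 0.23 (adjusted p = 0.49). In each of the 3 genes the same PLX5622 Non-Dep library (numbered 13) and the same control Non-Dep library (numbered 15) were the highest of their group, and the libraries numbered 47 and 20 were the lowest. Within a diet, the difference on PLX5622 was -1.37 ± 0.50 for Acta2 (adjusted p = 0.70) and -0.85 ± 0.36 for Myl9 (0.79). On control diet it was -1.01 ± 0.48 for Acta2 (0.80) and -1.19 ± 0.61 for Tagln (0.81).

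**Figure D3:**
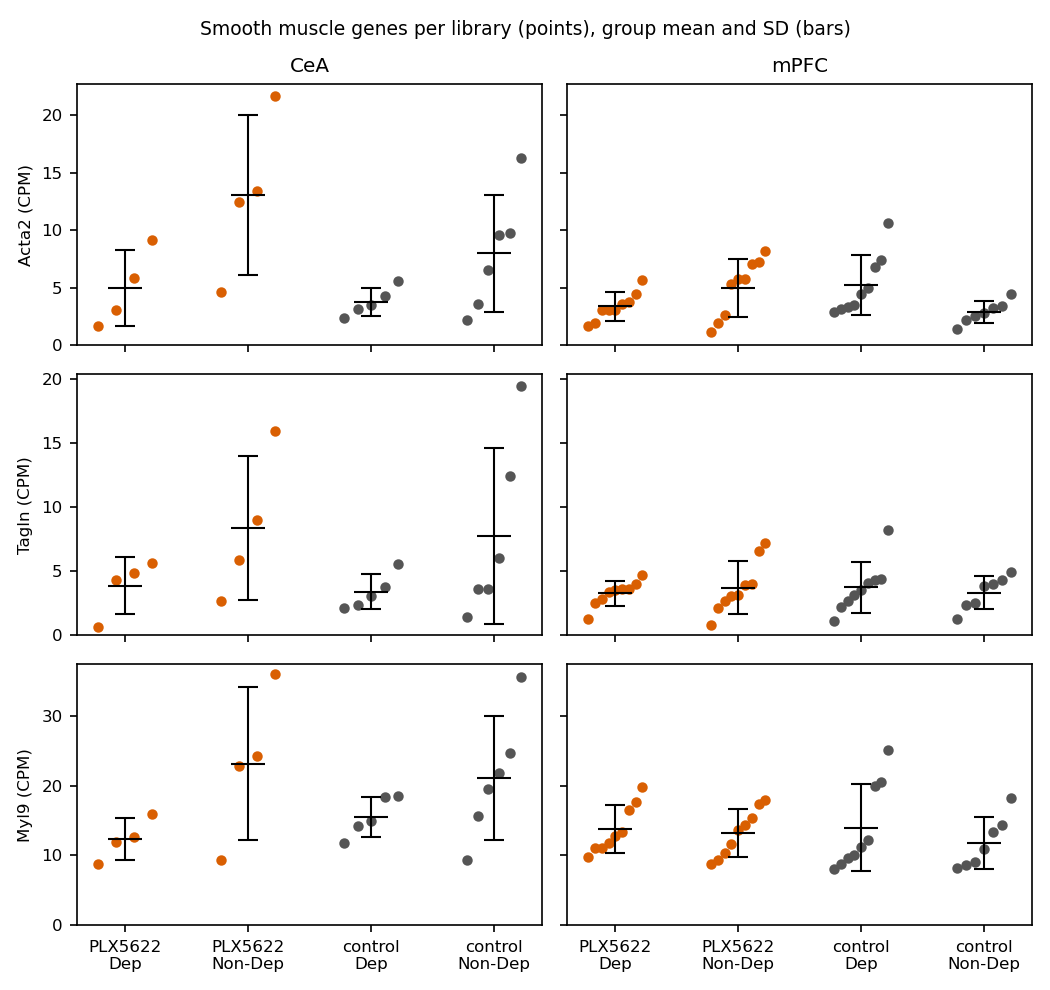
Acta2, Tagln and Myl9 in CPM per library (points), with group mean and SD (bars), CeA left and mPFC right. In CeA the Non-Dep groups spread up to 21.7 CPM for Acta2, 19.4 for Tagln and 36.1 for Myl9, while the Dep groups reach 9.19, 5.65 and 18.6.

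The call for these genes turned on the filter. With no filter on low counts, which tests 25258 genes, edgeR called Acta2 at -1.19 ± 0.23 (adjusted p = 0.000428), Myl9 at -0.65 ± 0.15 (0.00663) and Tagln at -1.17 ± 0.29 (0.034) in CeA averaged over diet, and 91 genes in all. The estimates were alike with and without the filter, and the standard errors were smaller without it. DESeq2 on the filtered genes gave Acta2 an adjusted p of 0.23. The spread of these genes between libraries was itself among the widest: set against the trend at their level, the biological coefficients of variation of 0.35 for Acta2, 0.44 for Tagln and 0.24 for Myl9 in CeA stood at the 98.9, 99.4 and 98.5 percentiles of all genes.

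Other transcripts of the vessel wall and its surroundings were read beside these. Of 28 further mural genes 10 were tested in CeA and 0 were called for history averaged over diet (2 above 0, 8 below, median -0.12). Smooth muscle myosin heavy chain Myh11 was at -0.56 ± 0.30 and the myosin light chain kinase gene Mylk at -0.33 ± 0.12 (adjusted p = 0.43). The marker list of meninges and choroid plexus moved with the smooth muscle genes: all 13 of its 21 genes tested lay below 0 (median -0.72, 0 called), with the fibrillar collagen gene Col3a1 at -2.70 ± 0.67 (adjusted p = 0.25). Its mean log2(CPM + 1) was 3.02 ± 0.40 in PLX5622 Dep, 3.67 ± 0.48 in PLX5622 Non-Dep, 2.74 ± 0.65 in control Dep and 3.29 ± 0.39 in control Non-Dep mice of CeA. Its summed level ran from 629 to 2264, 1632 to 4764, 127 to 2733 and 567.5 to 2356 CPM in these groups, and its part in the smooth muscle result was not tested. In the same comparison all 10 striatal neuron markers tested of 11 lay above 0 (median 0.31), as did 12 of the 13 oligodendrocyte markers tested (median 0.21), with 0 called, and their part was not tested either.

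In mPFC the smooth muscle genes did not share that direction when averaged over diet, with Acta2 at 0.16 ± 0.21 and Myl9 at 0.14 ± 0.15. Within a diet the differences of these 2 genes ran from -0.55 to 0.05 on PLX5622 and from 0.24 to 0.88 on control diet. Myl9 had a lowest, median and highest value of 9.74, 12.9 and 19.9 CPM in PLX5622 Dep, 8.71, 13.6 and 18.0 in PLX5622 Non-Dep, 8.10, 11.2 and 25.2 in control Dep and 8.13, 10.9 and 18.3 in control Non-Dep libraries of mPFC. Tagln, below the filter there, had 1.26, 3.51 and 4.72 CPM in PLX5622 Dep, 0.758, 3.17 and 7.21 in PLX5622 Non-Dep, 1.102, 3.54 and 8.24 in control Dep and 1.29, 3.81 and 4.95 in control Non-Dep libraries. The groups overlapped for both genes. The difference between regions in the history effect, CeA minus mPFC, was -1.35 ± 0.40 for Acta2 (edgeR adjusted p = 0.48), -0.79 ± 0.28 for Myl9 (0.79) and -1.23 ± 0.46 for Tagln (0.84). In this comparison 0 of 29 members and 0% of all genes passed, and DESeq2 called 0 members. At an unadjusted p under 0.05 there were 4 members, against 5.42% of all genes. These include Acta2 and Tagln, which passed the filter in CeA through Non-Dep libraries where they were high, so the count is no support. With no filter on low counts Acta2 (edgeR adjusted p = 0.00584) and Myl9 (0.0126) passed, among 33 of all 27481 genes tested. For the diet effect the same difference between regions had 0 members called by edgeR or DESeq2, with 0.0537% of all genes passing and 2 members at an unadjusted p under 0.05, against 8.52% of all genes. They were Bsg at 0.15 ± 0.07 and Vwf at -0.65 ± 0.32, and Slc16a1 came next at 0.30 ± 0.17.

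The smooth muscle genes carried the largest estimates for history averaged over diet in CeA, and the promoters of Acta2 and Myl9 are shown at the CArG box, the element that serum response factor binds in contractile genes, searched on both strands. The search was chosen after the values were seen. Each line gives 30 bases, 5' to 3' on the gene's strand, from RefSeq promoters (250 bases before to 50 after the start, GRCm38.p6), with the CArG-like stretch in capitals.
Myl9 at chr2:156775293-156775322, exact match: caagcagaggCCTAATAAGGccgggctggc
Myl9 at chr2:156775355-156775384, 1 base off: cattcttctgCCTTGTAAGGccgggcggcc
Acta2 at chr19:34255438-34255467, 1 base off: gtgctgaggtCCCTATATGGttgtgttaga
Acta2 at chr19:34255388-34255417, 1 base off: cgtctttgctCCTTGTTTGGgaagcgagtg
Relative to the RefSeq starts the stretches are at -161 and -99 in Myl9 and at -84 and -34 in Acta2. In the GENCODE annotation Myl9 spans chr2:156775420-156781658 on the plus strand and Acta2 chr19:34241090-34255590 on the minus strand, so the Acta2 stretches fall inside the annotated gene, whose outermost start lies farther upstream. An exact match was in 1.63% of all 32851 promoters and a match with at most 1 base off in 21.1%. Of the 28 promoters of the 24 members in the table, 1 held an exact match and 10 at most 1 base off; Tagln is not in it. A match describes the letters and is no measured site.

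The interaction asked whether ethanol history acted differently with and without PLX5622. In CeA the members were split evenly, 13 above and 13 below 0 with a median of 0.00 and 0 at an unadjusted p under 0.05, against 4.72% of all genes. The members with the smallest p there were Slc2a1 at -0.32 ± 0.18, Ly6c1 at 0.59 ± 0.39 and Ly6a at -0.50 ± 0.35 (edgeR adjusted p = 0.99 each). In mPFC 21 of 27 lay below 0, with a median of -0.18 against 0.0022 over all genes, and 3 had an unadjusted p under 0.05, against 3.04% of all genes. The 5 pericyte genes tested there were all below 0, between -0.41 and -0.15, and so were the 4 growth factor receptor genes, between -0.28 and -0.10. A negative value means that Dep mice lay lower relative to Non-Dep mice on PLX5622 than on control diet.

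Acta2 had the largest interaction in mPFC, at -1.43 ± 0.42 (edgeR adjusted p = 1.00). It had a lowest, median and highest value of 1.68, 3.12 and 5.68 CPM in PLX5622 Dep libraries and of 1.13, 5.73 and 8.20 CPM in PLX5622 Non-Dep libraries. On control diet these were 2.89, 4.49 and 10.7 CPM in Dep libraries and 1.43, 2.83 and 4.46 CPM in Non-Dep libraries. The order of the medians so turned round between diets, while all groups overlapped. Within Dep mice PLX5622 minus control was -0.68 ± 0.28 (adjusted p = 0.59), and within Non-Dep mice it was 0.75 ± 0.32 (adjusted p = 0.81). Dep minus Non-Dep on control diet was 0.88 ± 0.31 (adjusted p = 0.64). Beside this, all 10 meninges and choroid plexus genes tested in mPFC had an interaction below 0 (median -0.33, 0 called), with summed levels from 89.7 to 257 CPM over all mPFC groups and Ttr at or near 0, and their part was not tested.

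Rgs5 had the next smallest p, with an interaction of -0.34 ± 0.12 (edgeR adjusted p = 1.00). Its lowest, median and highest values were 49.6, 58.5 and 69.2 CPM in PLX5622 Dep libraries, 59.4, 66.7 and 85.8 CPM in PLX5622 Non-Dep libraries, 58.5, 72.3 and 82.1 CPM in control Dep libraries and 49.2, 63.7 and 77.04 CPM in control Non-Dep libraries of mPFC. The PLX5622 Dep group was the lowest by its median, and it overlapped the other groups. PLX5622 minus control in Dep mice was -0.23 ± 0.08 (adjusted p = 0.33), and Dep minus Non-Dep on PLX5622 was -0.23 ± 0.08 (adjusted p = 0.65); these comparisons share the PLX5622 Dep libraries. In CeA Rgs5 was at 48.8, 55.4, 55.7 and 64.2 CPM in PLX5622 Dep, 49.2, 53.3, 57.0 and 64.1 in PLX5622 Non-Dep and 51.3, 54.1, 55.7, 59.9 and 60.1 in control Dep libraries, and from 50.9 to 63.9 CPM with a median of 59.1 in control Non-Dep libraries, with all groups overlapping.

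Vtn, the gene of the matrix protein vitronectin, which brain pericytes make, had an interaction of -0.33 ± 0.15 in mPFC, with a lowest, median and highest of 24.0, 26.7 and 32.3 CPM in PLX5622 Dep, 26.3, 29.5 and 45.4 in PLX5622 Non-Dep, 23.6, 28.4 and 46.6 in control Dep and 24.9, 27.7 and 30.4 in control Non-Dep libraries. The groups overlapped, the highest values standing in 1 library each. In CeA Vtn was at 26.4, 29.9, 31.1 and 43.1 CPM in PLX5622 Dep, 29.99, 32.7, 36.0 and 41.2 in PLX5622 Non-Dep and 31.6, 36.0, 36.2, 36.8 and 42.9 in control Dep libraries, and from 33.2 to 44.3 CPM with a median of 35.2 in control Non-Dep libraries. Pdgfrb, the pericyte receptor, had an interaction of -0.25 ± 0.21 in mPFC, with a lowest, median and highest of 8.75, 12.2 and 14.8 CPM in PLX5622 Dep, 6.25, 13.5 and 20.2 in PLX5622 Non-Dep, 11.8, 13.2 and 19.4 in control Dep and 10.3, 14.1 and 18.1 in control Non-Dep libraries. In CeA Pdgfrb was at 7.07, 9.41, 10.7 and 12.9 CPM in PLX5622 Dep, 7.95, 9.62, 10.5 and 11.997 in PLX5622 Non-Dep and 4.86, 9.29, 12.7, 14.2 and 14.2 in control Dep libraries, and from 7.215 to 14.8 CPM with a median of 11.1 in control Non-Dep libraries. Its groups overlapped in both regions.

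History in mPFC on control diet gave 5 members at an unadjusted p under 0.05, against 6.00% of all genes, with a member median of 0.09 (19 above, 8 below). On PLX5622 it gave 1, Rgs5, against 6.07% of all genes, with a median of -0.04 (8 above, 19 below), and averaged over diet 3, against 9.38%. The VEGF receptor gene Kdr at -0.29 ± 0.15 and Acta2 at -0.55 ± 0.28 came next on PLX5622. Slc2a1 on control diet had a lowest, median and highest of 103.7, 115.7 and 143.5 CPM in Dep libraries, against 87.3, 102.1 and 113.4 CPM in Non-Dep libraries, a difference of 0.22 ± 0.08 (edgeR adjusted p = 0.67). Ly6a there was at 24.7, 32.8 and 45.4 CPM in Dep libraries, against 22.6, 25.3 and 36.4 CPM in Non-Dep libraries, a difference of 0.34 ± 0.13 (adjusted p = 0.74). Averaged over diet Slc2a1 was at 0.15 ± 0.06 (adjusted p = 0.35), Ly6a at 0.19 ± 0.09 (0.52) and the sialomucin gene Emcn at -0.32 ± 0.14 (0.45). In CeA Ly6c1 followed Acta2 and Myl9 by p for history on PLX5622, at 0.61 ± 0.31 (adjusted p = 0.83), and Esam followed Acta2 on control diet, at -0.48 ± 0.24 (0.80).

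The other genes of the vessel wall gave few calls within a region, all in the diet comparison but 1. Fli1, a transcription factor of endothelium that myeloid cells also use, fell with PLX5622 in CeA by 1.13 ± 0.23 in Dep mice (edgeR adjusted p = 0.00406) and by 0.93 ± 0.21 in Non-Dep mice (0.013). In mPFC Fli1 fell by 0.81 ± 0.13 in Dep mice. It averaged 9.30 ± 3.17 CPM in PLX5622 Dep libraries of CeA against 20.9 ± 4.80 CPM in control Dep libraries. Sparc, a matrix glycoprotein gene that vessels and microglia both express, fell with PLX5622 in mPFC to 85.2 ± 21.2 CPM in Dep mice, against 128.1 ± 17.1 CPM on control diet. In Non-Dep mice of mPFC Sparc fell to 73.7 ± 12.9 CPM, against 114.6 ± 9.14 CPM on control diet. F11r, a junction adhesion molecule also found on leukocytes, fell by 1.00 ± 0.23 in CeA averaged over history (edgeR adjusted p = 0.0172). It was at 1.95 to 5.65 CPM in PLX5622 Dep and 4.59 to 9.62 CPM in PLX5622 Non-Dep libraries of CeA. Control Dep libraries held 6.33 to 13.2 CPM and control Non-Dep libraries 6.53 to 11.8 CPM. F11r was below the filter in mPFC. In CeA it was tested because of control libraries where it was high, so its direction there is no separate support. Microglial markers fell in the same comparison (17 of 17 tested, median -4.20 in CeA averaged over history), and their part in the Fli1, Sparc and F11r values was not tested. Tfrc, the transferrin receptor that carries iron across brain endothelium and is also on neurons, fell in Dep mice of mPFC averaged over diet by 0.25 ± 0.05 (adjusted p = 0.0195). Its mean was 94.7 ± 9.93 CPM in PLX5622 Dep and 85.6 ± 9.24 CPM in control Dep libraries, against 109.6 ± 13.7 CPM in PLX5622 Non-Dep and 105.2 ± 14.6 CPM in control Non-Dep libraries of mPFC.

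The lists of ligands, endothelial activation and further mural genes had 0 calls within a region by edgeR. Of 15 ligand genes, the peptide gene Apln had the smallest p, for history in mPFC on PLX5622, at -0.73 ± 0.16 (edgeR adjusted p = 0.14), and the VEGF family member Vegfc was at -0.74 ± 0.20 for history in CeA averaged over diet (0.21). Of 9 genes of endothelial activation, the hypoxia factor gene Hif3a had the smallest p, for diet in CeA of Non-Dep mice, at 0.69 ± 0.22 (adjusted p = 0.18). Of the mural genes the transcription factor gene Foxc1 had it, for history in CeA on PLX5622, at 1.205 ± 0.40 (adjusted p = 0.62).

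The comparison of CeA with mPFC cannot be told apart from the sequencing instrument (NovaSeq 6000 for CeA, HiSeq 2500 for mPFC), from punching against fresh dissection, or from the annotation release, since the regions were counted on 56350 and 54547 identifiers. In it 19 of 29 members were called (edgeR; also 19 by DESeq2), 6 higher and 13 lower in CeA, or 65.5%, where 68.5% of all genes were called, 33.5% higher and 35.0% lower. The members' share is near that of all genes and is no result about vessels. The member median was -0.20, against -0.0026 over all genes. By class, 2 of 21 endothelial genes were higher and 10 lower, 1 of 5 pericyte genes was higher and 3 lower, and all 3 smooth muscle genes were higher in CeA. Of the called genes, Tagln was below the filter in mPFC alone, and Cdh5 and Abcc9 were below it in CeA alone. Each was below it in the region where it was called lower, so its direction is no separate support.

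**Figure D4:**
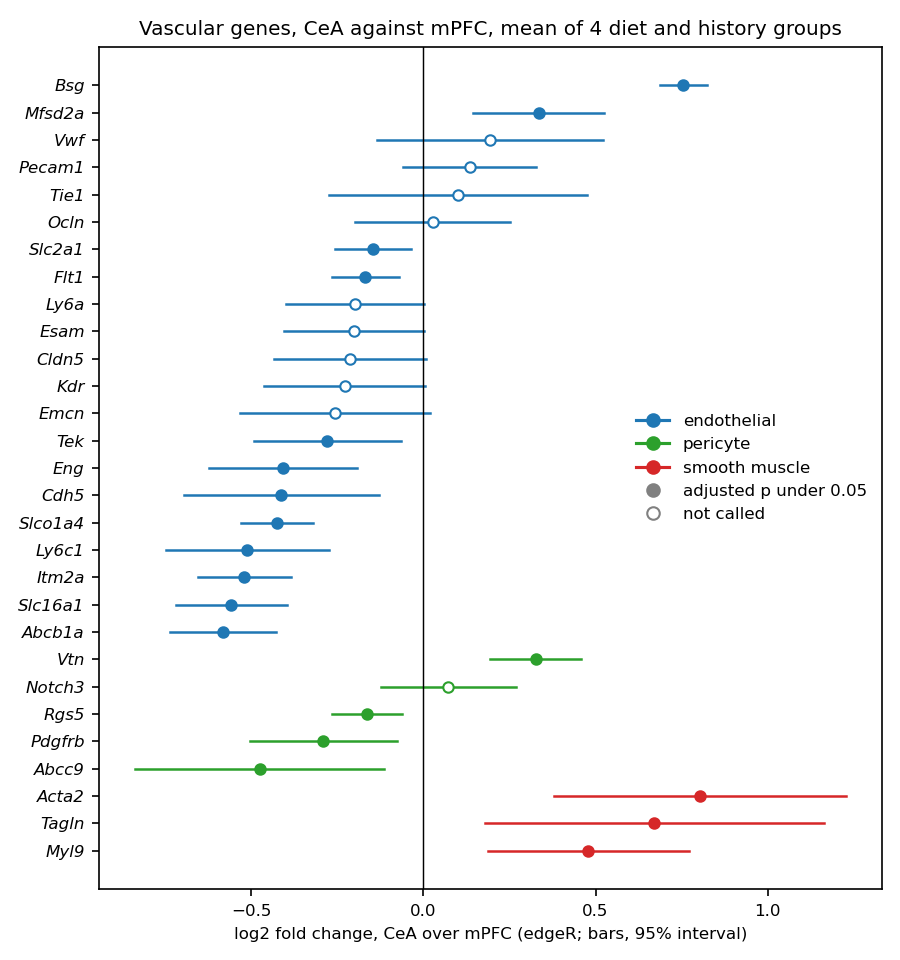
Log2 fold change of CeA over mPFC for the 29 tested members (points; filled where called), averaged over the 4 diet and history groups, with 95% intervals (bars), coloured by class. Bsg lies highest among endothelial genes at 0.76, Abcb1a lowest at -0.58, and the 3 smooth muscle genes all lie above 0.

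All 6 transporter genes were called between the regions, 2 higher and 4 lower in CeA, where 68.5% of all genes were called. Bsg was at 243.9 to 380.8 CPM in CeA (median 307) and 166.9 to 218.2 CPM in mPFC (median 188.4), a difference of 0.76 ± 0.03 in the fit of both regions (edgeR adjusted p = 9.5e-32). These ranges did not overlap, but 68.5% of all genes were called between the regions. How many of all genes separate the regions was not counted, so the separation is not shown to be particular to Bsg. Basigin is also made outside vessels, in neurons among others. Mfsd2a, the transporter of lysophospholipids that carry omega-3 fatty acids, averaged 20.6 ± 5.24 CPM in CeA and 16.7 ± 3.37 CPM in mPFC (0.33 ± 0.10). Abcb1a averaged 15.9 ± 2.77 CPM in CeA and 24.98 ± 4.01 CPM in mPFC (-0.58 ± 0.08). Slc16a1 averaged 18.5 ± 4.81 CPM in CeA and 28.5 ± 5.04 CPM in mPFC (-0.56 ± 0.08), and the organic anion transporter gene Slco1a4 53.4 ± 5.70 and 75.0 ± 9.52 CPM (-0.42 ± 0.05). Slc2a1 was at -0.15 ± 0.05, a call lost without the spike-in libraries (-0.06).

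Of the endothelial receptors and surface genes, Eng (-0.41 ± 0.11), Tek (-0.28 ± 0.11) and Flt1 (-0.17 ± 0.05) were lower in CeA, and Kdr at -0.23 ± 0.12 was not called. Itm2a, a membrane protein gene of brain endothelium, averaged 25.9 ± 3.95 CPM in CeA and 38.7 ± 5.67 CPM in mPFC (-0.52 ± 0.07). Ly6c1 averaged 10.1 ± 3.15 CPM in CeA and 15.1 ± 3.82 CPM in mPFC (-0.51 ± 0.12). Of the junction genes Cdh5, the cadherin of endothelial contacts, was lower (-0.41 ± 0.14), while Esam, Cldn5, Pecam1 and Ocln lay between -0.21 and 0.13 and were not called. The remaining endothelial genes Ly6a (-0.20 ± 0.10), Emcn (-0.26 ± 0.14), Vwf (0.19 ± 0.16) and Tie1 (0.10 ± 0.19) were not called either.

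Of the pericyte genes, Vtn was higher in CeA at 35.6 ± 4.92 CPM, against 29.6 ± 5.33 CPM in mPFC (0.33 ± 0.07). Pdgfrb (-0.29 ± 0.11), Rgs5 (-0.16 ± 0.05) and Abcc9, a subunit of potassium channels (-0.47 ± 0.18), were lower, and the Notch receptor gene Notch3 was not called (0.07 ± 0.10). The smooth muscle genes were higher in CeA: Acta2 by 0.80 ± 0.21 (edgeR adjusted p = 0.000744), Tagln by 0.67 ± 0.25 (0.0138) and Myl9 by 0.48 ± 0.15 (0.00332). Tagln was below the filter in mPFC, so its direction is no separate support. Other mural genes had 6 of 15 tested higher and 4 lower, with Myh11 at 1.00 ± 0.19 and Mylk at 1.05 ± 0.08. The meninges and choroid plexus list moved with them, 11 of 18 tested being higher and 5 lower in CeA (median 0.93), and its part was not tested. Of all genes, 33.5% were higher and 35.0% lower in CeA. Without the spike-in libraries 14 members were called, a fit for which calls over all genes were not counted. Besides Slc2a1 the genes Myl9 (0.45), Tagln (0.76), Cdh5 (-0.38), Abcc9 (-0.29) and Tek (-0.13) missed the threshold in it. The Tagln call was also lost without the PLX5622 Dep library of CeA numbered 29 (0.59).

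Some mice gave both regions. With the mouse so taken as a replicate block over the 15 pairs, 27 members were tested and 18 called, beside 7988 of all 12599 genes tested. Tagln and Tie1 were below the filter in these 30 libraries, so the Tagln call has no value there. Rgs5 (-0.11) and Pdgfrb (-0.13) missed the threshold, Cldn5 (-0.26 ± 0.11, adjusted p = 0.0459) and Ly6a (-0.32 ± 0.09, 0.00358) passed, and Slco1a4 was at -0.26. The same libraries without the block, a fit added after seeing the data, gave 17 calls of 27, with Rgs5 at -0.11, Pdgfrb at -0.13 and Slco1a4 at -0.26 there too. Calls over all genes were not counted for that fit. For the differences of the history and diet effects between regions the block, also added after seeing the data, gave 0 members called. Acta2 was at -0.98 ± 0.46 for history (edgeR adjusted p = 1.00) and at 1.02 ± 0.46 for diet (0.60), and Myl9 at -0.54 ± 0.33 for history (1.00). The same libraries without the block also gave 0, with Acta2 at -0.94 ± 0.48 for history.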

How the data were processed

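Each of 53 libraries has 1 table of counts, which the authors deposited unnormalized as whole reads per Ensembl gene. According to the submitters' processing notes the tools were R 3.5.1, DESeq2 1.10.1, HTSeq 0.11.0, Bowtie2 2.3.4.3 and FastQC 0.11.8, on mm10 (GRCm38.p6); how strand and duplicate reads were handled is not stated there. Gene counts made up 71.6% to 73.4% of a CeA table and 74.1% to 75.5% of an mPFC table; spike-in entries and reads in no gene were left out. Symbols were matched by identifier to GENCODE annotation of GRCm38.

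edgeR 4.0.16 (R 4.3.3) gave two-sided quasi-likelihood F tests with TMM scaling, filterByExpr (minimum count 10, total 15), robust spread and 1 coefficient per group. Benjamini-Hochberg adjustment ran over every gene tested: 11721 for CeA, 12331 for mPFC, 13035 for both regions together. Each SE was derived from the fold change and its F value. The code was tested on simulated data. Alternatives were DESeq2 1.42.0, its size factors, no filter, fits of only the groups compared, no spike-in libraries, each library left out, total counts as library size and a pseudocount of 0.25.

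Members and lists were chosen with earlier results of these data known. For a set of 13 members every value is given in groups of up to 5 libraries, and the lowest, median and highest in larger groups; besides these, the 3 members with the smallest p in each comparison without a call, and the called genes of further lists or else the one with the smallest p, are named. The labels' protocols describe mPFC and CeA taken out of the same brain, so equal numbers were taken to pair libraries where diet and history match. Number 16 differs in diet and was not paired, so a number need not name 1 mouse. Deviations from group means in the 15 pairs correlated at -0.0356 to 0.0788 (median 0.0151). No libraries of a group agreed within counting noise (lowest chi-square per gene 1.12). The p-values set the group differences against the spread between these libraries, with each gene's spread drawn towards the trend over all genes.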

Additional observations from a re-analysis of the deposited data

Results flagged for a closer look

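Sets of values from groups of 4 to 9 libraries were read for a library far from the others (Dixon's gap over range at its 95% critical value), and 10 were found, 7.35% of the sets read; chance gives about 1 in 20. In mPFC of PLX5622 Non-Dep mice the library numbered 21 had the highest mean log2(CPM + 1) over all 33 genes, 4.15 where the next had 3.88, and over the endothelial genes, 4.45 where the next had 4.22. The lowest endothelial mean in CeA of PLX5622 Non-Dep mice was 3.75, in the library numbered 47, and the next was 3.92. In mPFC of control Dep mice the library numbered 28 was highest for the pericyte mean (3.57), for Vtn (46.6 CPM) and for Tagln (8.24 CPM). The lowest smooth muscle mean in CeA of control Dep mice was 2.50, below 2.78 in the next. Pecam1 was highest at 12.9 CPM in 1 PLX5622 Dep library of CeA and at 12.4 CPM in 1 control Non-Dep library of mPFC. Ly6a was highest at 36.4 CPM in another control Non-Dep library of mPFC.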

How the results depend on the processing

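Within regions, and for the differences of effects between regions, the count of members called stayed at 0 under every alternative run except the one with no filter on low counts. With no filter it was 3 for CeA Dep minus Non-Dep averaged over diet, where 91 of all 25258 genes were called. It was 2 for the difference of the history effect between regions, where 33 of all 27481 genes were called. The standard errors were smaller without the filter, and the cause was not tested. For CeA against mPFC it was 19, and 18 with the replicate block, 14 without the spike-in libraries, 22 with no filter and 19 to 22 with 1 CeA library left out. Over all genes the block called 7988 of 12599 and the fit with no filter 10507 of 27481. Calls over all genes were not counted without the spike-in libraries or with 1 library left out. Within a region no number was given to more than 1 library, so the block applies only between regions. For the differences of effects the block left the count at 0. Eng in CeA of Dep mice, PLX5622 minus control, was 0.36, and -0.20 without the spike-in libraries; the cause was not tested. Depth limits the low genes: members below the filter cannot show a difference here.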
